A study of Mus musculus with 10 samples.

Results

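The genes described are 31 genes of endoplasmic reticulum (ER) protein folding and ER stress, out of 24202 gene symbols in the table. They were chosen by symbol as textbook members of the unfolded protein response, with earlier results of these data known. They were followed in bulk RNA sequencing of 10 MB-49 tumors, 5 from mice given PIIO-1, an antibody to GARP (the protein made from LRRC32, which holds latent TGF-beta on the cell surface), and 5 from mice given PBS. MB-49 is a mouse bladder cancer cell line. The mice of both groups carried the hLrrc32 knock-in and received 100000 MB-49 cells under the skin of the right flank. PIIO-1 was given into the peritoneum at 200 ug per mouse on days 6 and 9, and tumors were collected on day 10. The schedule of PBS and the age and sex of the mice were not given in the sources used here. All 31 genes had a mean of at least 10 normalized counts and were tested.

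Proteins that enter the secretory pathway fold in the lumen of the ER with the help of chaperones, disulfide isomerases and lectins. When unfolded proteins accumulate, the sensors IRE1-alpha, PERK and ATF6 start the unfolded protein response: IRE1-alpha splices the Xbp1 transcript, PERK phosphorylates eIF2-alpha and so favors translation of Atf4, and ATF6 is cut in the Golgi to release a transcription factor. Together these raise folding capacity, feed misfolded proteins to ER-associated degradation and, when stress lasts, induce Ddit3 (CHOP). Gene counts cannot show the splicing of Xbp1, the phosphorylation of eIF2-alpha or the cleavage of ATF6.

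Read totals in genes were lowest in PBS tumor 4, at 18843192, and highest in PBS tumor 3, at 37581521. Levels are normalized counts (gene counts divided by the size factor of the library), and differences are PIIO-1 minus PBS on the log2(normalized count + 1) scale with the standard error (SE) from limma, a linear model fitted across all 16767 genes tested. Nothing in the labels ties each tumor to an animal of its own, so p-values measure only the spread between these samples, which may be technical. RNA came from single-cell suspensions of the tumors, in which T cell, macrophage and fibroblast genes were measured beside keratin genes, and in such bulk RNA fewer cells of a type and less RNA per cell cannot be told apart. The keratin genes Krt8 and Krt18 reached 50292 to 65634 and 29446 to 35184 normalized counts in PIIO-1 tumors and 50275 to 63492 and 29791 to 33603 in PBS tumors, while the epithelial gene Epcam had 10.9 to 23.5 in PIIO-1 tumors and 17.6 to 29.6 in PBS tumors. The urothelial gene Upk2 was at 0 in 4 of the 5 PIIO-1 tumors and 1 of the 5 PBS tumors. Summed markers overlapped between the groups for epithelium, T cells, macrophages, fibroblasts, plasma and B cells, red blood cells, immediate early genes and hypoxia. Krt8 and Krt18 make up most of the epithelial sum. Of the 10 epithelial genes tested, 5 were higher and 5 lower on average in PIIO-1 tumors. At an unadjusted limma p under 0.05, 2 were higher, Krt14 (difference 0.41, SE 0.16) and Cdh1 (0.72, SE 0.31), and 0 lower. All 10 measured hypoxia genes were higher on average in PIIO-1 tumors. Of these, 4 had an unadjusted limma p under 0.05 (40.0%, against 2.86% of all genes). The 10 immediate early and dissociation stress genes summed to 124025, 139764, 159888, 165269 and 223449 in PIIO-1 tumors 1 to 5, against 114161, 108692, 106320.0, 109691 and 143806 in PBS tumors 1 to 5; all 10 were higher on average in PIIO-1 tumors, 7 of them at an unadjusted limma p under 0.05. The 5 red blood cell genes, all 5 higher at that level, summed to 8372 to 58643 in PIIO-1 tumors and 5488 to 12848 in PBS tumors, and both sums were highest in PIIO-1 tumor 5.

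The unfolded protein response is known to act through short promoter elements, which were searched for in the promoters of the genes. RefSeq windows of 300 bases (250 before to 50 after the start site, build GRCm38.p6) were at hand for 27 of the 31 genes, 28 windows in all. The search covered both strands and took in the ER stress element ERSE (CCAAT, then 9 bases of any kind, then CCACG, bound by NF-Y with ATF6 or XBP1), ERSE-II (ATTGG, 1 base of any kind, then CCACG), the XBP1 element UPRE (TGACGTGG), the core of the C/EBP-ATF composite element read by ATF4 (TGATGNAA) and the cAMP response element CRE (TGACGTCA). The letters CCACG are shared by ERSE and ERSE-II, UPRE holds them on its other strand, and UPRE and CRE share TGACGT. ERSE was found in 9 of the 28 windows (32.1%), against 39 of all 32851 windows (0.119%), so these genes hold 9 of the 39 windows with that exact element. ERSE-II was in 2 (7.14%), against 12 of all windows (0.0365%), the C/EBP-ATF core in 3 (10.7%), against 1304 (3.97%), CRE in 1 (3.57%), against 588 (1.79%), and UPRE in 0 of 28, against 222 (0.676%). Windows of genes tested here numbered 14452. Their shares were 0.159% for ERSE, 0.0623% for ERSE-II, 2.32% for the C/EBP-ATF core, 2.82% for CRE and 0.851% for UPRE. The ERSE windows belonged to Calr, Canx, Creld2, Derl3, Dnajc3, Hsp90b1, Hspa5, Pdia6 and Syvn1. ERSE and ERSE-II, like these genes, are known from the unfolded protein response, so their high shares are no independent support for the list. A match is a description of letters, not a measured binding site.

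The windows of 7 genes are shown because their genes carry the comparisons: Hspa5 and Hsp90b1 for ERSE, Herpud1 for ERSE-II with the C/EBP-ATF core, Chac1 and Asns for that core, Ppp1r15a for CRE, and Dnajb9, which had the smallest p of the 31 genes and no exact match. They lie at chr2:34771840-34772139 (plus strand), chr10:86705395-86705694 (minus strand), chr8:94386179-94386478 (plus strand), chr2:119350992-119351291 (plus strand), chr6:7693160-7693459 (minus strand), chr7:45526219-45526518 (minus strand) and chr12:44210019-44210318 (minus strand). Capitals mark the fixed bases of the motifs.
Hspa5: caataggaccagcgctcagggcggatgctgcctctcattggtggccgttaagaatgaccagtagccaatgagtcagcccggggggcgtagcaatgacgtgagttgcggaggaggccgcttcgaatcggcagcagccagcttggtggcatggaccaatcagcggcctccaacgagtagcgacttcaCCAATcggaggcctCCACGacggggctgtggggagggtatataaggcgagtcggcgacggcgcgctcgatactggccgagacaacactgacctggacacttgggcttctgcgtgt
Hsp90b1: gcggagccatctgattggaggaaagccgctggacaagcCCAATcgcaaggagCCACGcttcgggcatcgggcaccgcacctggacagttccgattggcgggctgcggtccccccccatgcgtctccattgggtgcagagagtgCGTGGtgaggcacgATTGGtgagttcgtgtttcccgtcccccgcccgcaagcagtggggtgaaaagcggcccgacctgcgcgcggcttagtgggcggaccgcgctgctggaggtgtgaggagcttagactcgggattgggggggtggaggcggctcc
Herpud1: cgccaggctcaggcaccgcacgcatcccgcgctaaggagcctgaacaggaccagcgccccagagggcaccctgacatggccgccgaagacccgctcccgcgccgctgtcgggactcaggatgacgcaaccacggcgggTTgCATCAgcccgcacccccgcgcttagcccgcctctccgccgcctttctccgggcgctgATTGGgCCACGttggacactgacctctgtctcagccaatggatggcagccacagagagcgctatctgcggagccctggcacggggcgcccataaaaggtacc
Chac1: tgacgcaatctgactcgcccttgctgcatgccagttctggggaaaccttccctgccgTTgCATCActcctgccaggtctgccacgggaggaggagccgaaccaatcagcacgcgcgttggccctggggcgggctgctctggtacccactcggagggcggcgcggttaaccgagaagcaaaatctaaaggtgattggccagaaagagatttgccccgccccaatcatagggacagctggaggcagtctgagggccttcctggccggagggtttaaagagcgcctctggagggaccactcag
Asns: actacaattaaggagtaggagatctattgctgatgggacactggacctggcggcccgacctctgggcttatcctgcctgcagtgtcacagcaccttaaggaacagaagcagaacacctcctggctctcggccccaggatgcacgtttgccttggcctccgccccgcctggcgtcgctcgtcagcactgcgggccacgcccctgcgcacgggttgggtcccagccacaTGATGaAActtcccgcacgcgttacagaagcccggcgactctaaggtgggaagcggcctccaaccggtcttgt
Ppp1r15a: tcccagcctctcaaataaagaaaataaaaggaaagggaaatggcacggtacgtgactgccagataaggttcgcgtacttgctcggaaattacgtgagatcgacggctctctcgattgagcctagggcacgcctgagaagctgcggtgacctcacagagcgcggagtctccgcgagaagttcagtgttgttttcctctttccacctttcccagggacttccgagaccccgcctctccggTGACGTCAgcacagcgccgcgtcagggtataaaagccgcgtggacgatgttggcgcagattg
Dnajb9: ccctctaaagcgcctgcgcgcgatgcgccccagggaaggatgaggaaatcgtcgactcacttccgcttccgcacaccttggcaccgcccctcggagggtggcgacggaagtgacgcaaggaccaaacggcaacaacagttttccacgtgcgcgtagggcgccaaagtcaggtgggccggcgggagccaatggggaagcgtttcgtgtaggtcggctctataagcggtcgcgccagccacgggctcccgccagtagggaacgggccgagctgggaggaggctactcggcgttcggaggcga

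**Figure D1:**
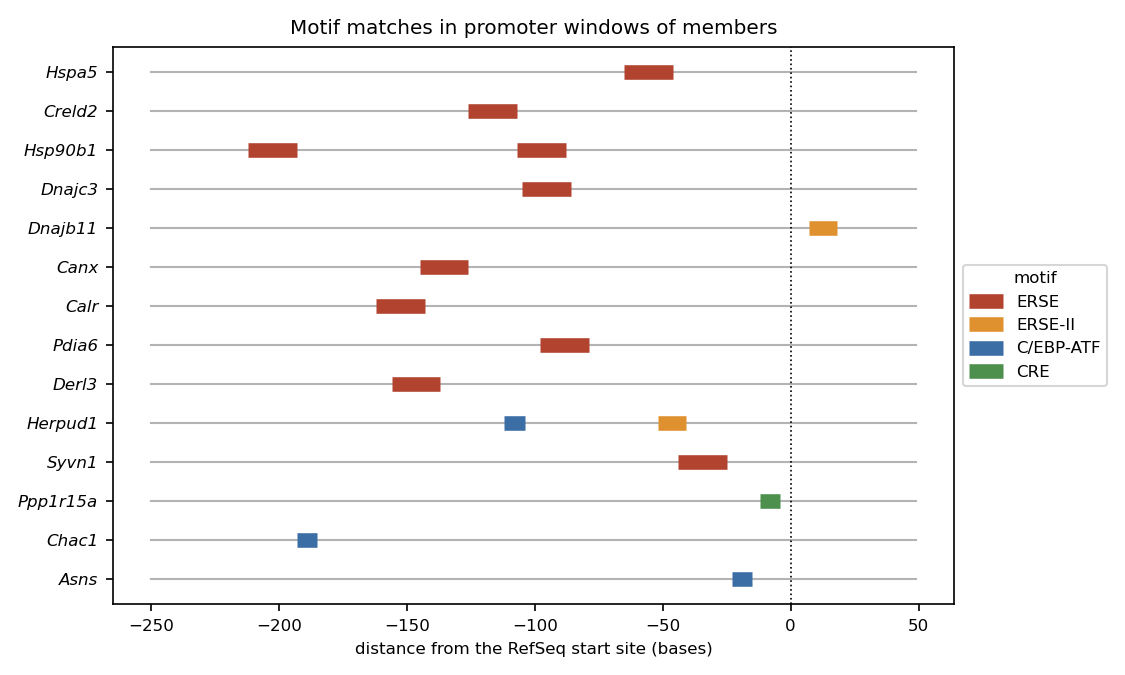
Motif matches in the promoter windows of the 14 genes with at least 1 match. The horizontal axis is the distance in bases from the RefSeq start site (dotted line at 0), each grey line is 1 window of 300 bases, and colored bars are the matched elements. Hsp90b1 holds 2 ERSE matches, Herpud1 holds ERSE-II and a C/EBP-ATF core, and the bar of Dnajb11 lies after the start site.

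Among the 9 genes with an ERSE the differences between PIIO-1 and PBS tumors ran from -0.050 (Calr) to 0.36 (Derl3), with a median of 0.057 and 6 positive. The 3 genes with the C/EBP-ATF core, Herpud1 with ERSE-II as well, differed by 0.30 (Chac1), 0.15 (Herpud1) and -0.049 (Asns). For comparison, 21 of all 31 genes were positive (67.7%) and 51.1% of all genes tested. Each negative estimate among genes with an ERSE or the core lay within its SE of 0 (Calr SE 0.055, Canx 0.056, Dnajc3 0.047, Asns 0.12). Opposite changes of genes that share an element were therefore not shown.

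Over the whole list PIIO-1 and PBS tumors differed little. Of the 31 genes 0 passed limma at an adjusted p of 0.05, as did 0 of all 16767 genes tested (0%). On recovered whole reads edgeR and DESeq2 also called 0 of the 31, and over all genes edgeR called 0 and DESeq2 3 (0.0179%). At an unadjusted limma p under 0.05 there were 4 genes, all higher in PIIO-1 tumors (12.9% of 31), against 2.86% of all genes tested that were higher at that level 2.77% that were lower and 5.63% in either direction. They were Dnajb9, Ppp1r15a, Atf4 and Xbp1. At that level edgeR gave 2 of the 31 (Dnajb9 and Ppp1r15a, both higher) and 975 of all genes. DESeq2 gave 4 of the 31 and 1012 of all genes; its 4 were Dnajb9, Ppp1r15a and Atf4, all higher, and Pdia3, which was lower, in place of Xbp1. The count of 4 was 0 without PIIO-1 tumor 4, PBS tumor 2 or PBS tumor 4, 1 without PIIO-1 tumor 3 or 5, and 2 without PBS tumor 1 or 3. In the other fits, without PIIO-1 tumor 1, PIIO-1 tumor 2 or PBS tumor 5, it reached up to 6. Differences were positive for 21 genes (67.7%) and for 51.1% of all genes tested, with a median of 0.051 over the 31 genes and of 0.0027 over all genes. The 2 groups did not overlap for 1 of the 31 genes, Pdia3, which was lower in PIIO-1 tumors, against 0.459% of all genes tested that were lower without overlap, 0.394% that were higher and 0.853% in either direction.

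Most of the genes were measured closely enough to bound the difference. The 95% interval lay within a 1.5-fold change either way for 27 of the 31 genes, against 69.6% of all genes tested, and within 1.2-fold for 21, against 40.6%. Dnajb9, Derl3, Ppp1r15a and Chac1 were the 4 genes whose interval reached past 1.5-fold. The coefficient of variation over the 10 tumors had a median of 7.06% for the 31 genes and of 11.9% for all genes tested. It exceeded 15% in Dnajb9, Ddit3, Derl3, Ppp1r15a, Chac1 and Asns. All genes tested include genes down to a mean of 10 normalized counts, and neither the intervals nor the variation were compared at matched levels. These comparisons therefore do not show that a small spread is particular to this list.

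**Figure D2:**
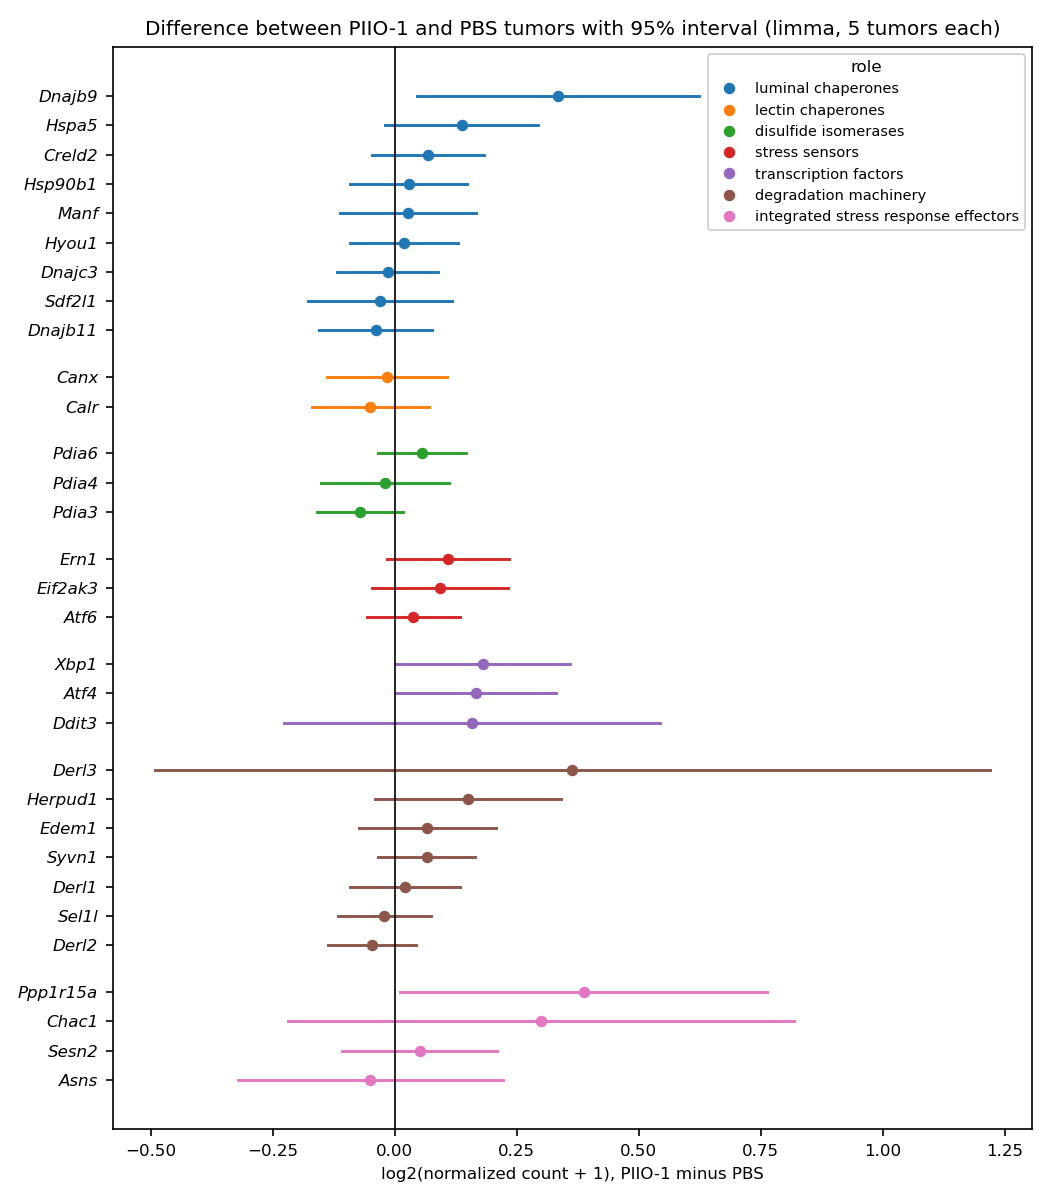
Difference between PIIO-1 and PBS tumors for the 31 genes, on the log2(normalized count + 1) scale, grouped by role. Points are limma estimates and lines their 95% intervals (5 tumors in each group). The intervals of Dnajb9, Ppp1r15a, Xbp1 and Atf4 lie above 0, and none of the 31 passed after adjustment.

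Levels between genes were compared per length, as normalized counts per kb of annotated exon. That length takes in every annotated exon of a gene, used in these tumors or not. The SDs between tumors hold no error of length, so the order of genes close in level is uncertain. Hspa5 at 7078 ± 697 per kb in PIIO-1 tumors (6413 ± 288 in PBS tumors) and Calr at 6957 ± 363 (7200.0 ± 365 in PBS tumors) led the order in both groups. These neighbours did not differ beyond their spread in PIIO-1 tumors, while in PBS tumors Calr lay above Hspa5 by more than the SDs of both. Pdia3 (5520.3 per kb in PIIO-1 tumors), Atf4 (4851), Hsp90b1 (4005) and Canx (3105) followed. At the other end, in falling order in PIIO-1 tumors, stood Atf6 (463), Syvn1 (425), Sel1l (424), Chac1 (392), Ern1 (325), Derl2 (229) and Eif2ak3 (182), which takes in all 3 sensor genes. Derl3, a degradation gene best known from secretory cells, was lowest at 7.74 ± 3.87 per kb in PIIO-1 tumors and 5.58 ± 2.04 in PBS tumors. Exons of 11 of the 31 genes overlap another annotated gene, most of all Hsp90b1 (632 bases), Eif2ak3 (485) and Manf (326). Without a stated strand setting reads there cannot be told apart. Hsp90b1 and Manf also overlap genes on their own strand, where a strand setting would not separate the reads. Ddit3 is the symbol of 2 gene models in the annotation, so its length and count are uncertain.

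The luminal chaperones begin with Hspa5, which encodes BiP, the HSP70 of the ER that also holds the sensors inactive (chromosome 2, 34771970 to 34777547, plus strand, GRCm38). Hspa5 had 29736, 25730.3, 31480.2, 29052 and 33662 normalized counts in PIIO-1 tumors 1 to 5, against 27184, 28769.6, 26333, 25619 and 27707 in PBS tumors 1 to 5. PIIO-1 tumors 1, 3, 4 and 5 lay above every PBS tumor, and PIIO-1 tumor 2 lay below all of them except tumor 4. The mean was 29932 ± 2949 in PIIO-1 tumors and 27123 ± 1219 in PBS tumors (SD, n = 5 each), a difference of 0.14 (SE 0.072, 95% interval -0.019 to 0.29) with a limma adjusted p of 0.837. Without PIIO-1 tumor 5 it was 0.094.

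Dnajb9, which encodes the BiP co-chaperone ERdj4 (chromosome 12, 44205559 to 44210326, minus strand), had 1099, 998, 1279.7, 1394 and 1803 normalized counts in PIIO-1 tumors 1 to 5. PBS tumors 1 to 5 held 1075, 964, 1048, 950.3 and 1071. PIIO-1 tumors 1, 3, 4 and 5 lay above every PBS tumor, tumor 5 farthest and tumor 1 narrowly, while tumor 2 lay within the PBS range. The difference was 0.33 (SE 0.13, 95% interval 0.045 to 0.62), the smallest p of the 31 genes (limma, unadjusted 0.0270, adjusted p 0.837). The value without PIIO-1 tumor 5 was 0.21. The summed immediate early genes were also highest in PIIO-1 tumors 5, 4 and 3, and their part in the result was not tested.

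Hsp90b1, which encodes the HSP90 of the ER (GRP94), had 16489, 15126, 16694, 15416 and 17025 normalized counts in PIIO-1 tumors and 15976, 17382, 15478, 15250.1 and 15081 in PBS tumors, in the order of tumors 1 to 5. The groups overlapped throughout, with the highest value in PBS tumor 2. Its difference was 0.029 (SE 0.055; limma adjusted p 0.953), and ranged from 0.0095 (PIIO-1 tumor 5 left out) to 0.063 (PBS tumor 2 left out). Hyou1 (the GRP170 exchange factor of BiP) differed by 0.020, Dnajc3 (the co-chaperone p58IPK) by -0.014, Dnajb11 (ERdj3) by -0.039, Sdf2l1 (an ERdj3 partner) by -0.030, the secreted stress factor Manf by 0.027 and Creld2 by 0.069, each with an SE between 0.047 and 0.067. The Creld2 value was 0.036 without PBS tumor 4, and Dnajb11 ranged from -0.065 (PIIO-1 tumor 5 left out) to -0.0038 (PIIO-1 tumor 1 left out). In all, 6 of the 9 luminal genes were positive and 0 passed.

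The lectin chaperones Calr (calreticulin) and Canx (calnexin) hold glycoproteins during folding. Calr averaged 20035 ± 1044 normalized counts in PIIO-1 tumors and 20736 ± 1050.1 in PBS tumors (difference -0.050, SE 0.055), ranging from -0.081 (PBS tumor 4 left out) to -0.028 (PIIO-1 tumor 1 left out). Canx averaged 14570.2 ± 950.2 and 14721 ± 697 in the same order (difference -0.016, SE 0.056). Their partner Pdia3 (ERp57, chromosome 2, 121413775 to 121438687, plus strand), a disulfide isomerase that also sits in the MHC class I loading complex, was the 1 gene of the 31 whose groups did not overlap. Pdia3 had 17540.1, 16907, 17127, 17631 and 17435 normalized counts in PIIO-1 tumors 1 to 5, against 18641, 18544, 18319, 17795 and 17701 in PBS tumors 1 to 5. The highest PIIO-1 value, in tumor 4, lay just below the lowest PBS value, in tumor 5. The difference was small, -0.071 (SE 0.040, 95% interval -0.16 to 0.017; limma adjusted p 0.837), and ran from -0.081 to -0.062 with single tumors left out. The isomerase genes Pdia6 and Pdia4 differed by 0.057 (SE 0.041) and -0.020 (SE 0.060), so 2 of the 3 isomerase genes were negative.

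**Figure D3:**
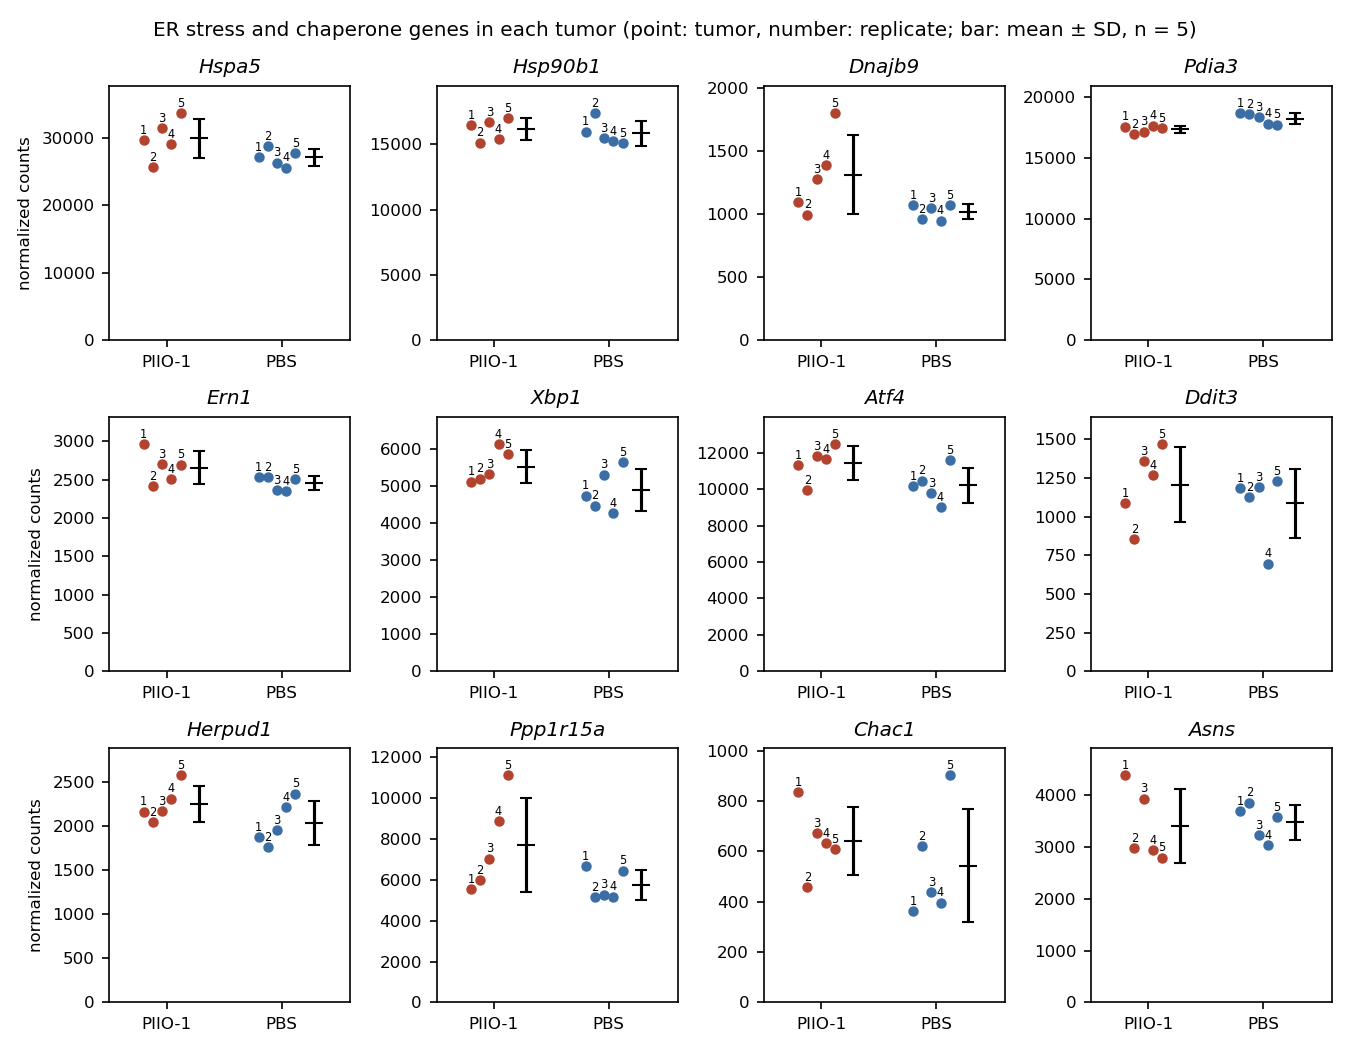
Normalized counts of 12 genes in each tumor, with PIIO-1 tumors left and PBS tumors right in each panel. Points are tumors, numbered by replicate, and bars give the mean ± SD of 5 tumors; every vertical axis starts at 0. Pdia3 shows no overlap between the groups, and PIIO-1 tumor 5 has the highest Dnajb9 and Ppp1r15a.

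The 3 sensor genes were all slightly higher in PIIO-1 tumors on average and none passed. Ern1, which encodes IRE1-alpha, had 2961, 2413, 2703, 2505 and 2697 normalized counts in PIIO-1 tumors 1 to 5, against 2535, 2532, 2362, 2352 and 2505 in PBS tumors 1 to 5. PIIO-1 tumors 1, 3 and 5 lay above the PBS tumors, and tumors 2 and 4 among them. Its difference was 0.11 (SE 0.057; limma adjusted p 0.837), and 0.069 without PIIO-1 tumor 1. Eif2ak3, which encodes PERK, differed by 0.094 (SE 0.064) and Atf6 by 0.038 (SE 0.044), and the lowest values with a tumor left out were 0.055 for Eif2ak3 (PBS tumor 2) and 0.018 for Atf6 (PIIO-1 tumor 1).

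The 3 transcription factor genes were all higher on average in PIIO-1 tumors, with a median difference of 0.17, and 0 passed. Xbp1 (chromosome 11, 5520659 to 5525893, plus strand) had 5119, 5199.5, 5316, 6126 and 5855 normalized counts in PIIO-1 tumors 1 to 5. In PBS tumors 1 to 5 it had 4741, 4473, 5307, 4277 and 5635. PBS tumors 1, 2 and 4 lay below every PIIO-1 tumor, and PBS tumors 3 and 5 among them. The means were 5523 ± 443 in PIIO-1 tumors and 4887 ± 570.3 in PBS tumors (SD, n = 5 each), a difference of 0.18 (SE 0.082; limma adjusted p 0.837). Total Xbp1 counts do not separate its spliced from its unspliced form.

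Atf4 (chromosome 15, 80255184 to 80257541, plus strand), the factor of the integrated stress response, had 11323, 9932, 11824, 11659 and 12457 normalized counts in PIIO-1 tumors 1 to 5, against 10148, 10463, 9785, 9019 and 11569 in PBS tumors 1 to 5. The groups overlapped through PIIO-1 tumor 2 and PBS tumor 5. With means of 11439 ± 938 in PIIO-1 tumors and 10197 ± 937 in PBS tumors, Atf4 differed by 0.17 (SE 0.075; limma adjusted p 0.837). Ddit3, which encodes the stress-induced factor CHOP, had 1085, 855, 1359, 1270.1 and 1467 normalized counts in PIIO-1 tumors and 1183, 1126, 1192, 696 and 1228 in PBS tumors, in the order of tumors 1 to 5. PBS tumor 4 was far below the rest, and the difference of 0.16 (SE 0.18; limma adjusted p 0.899) was 0.0060 without it and 0.28 without PIIO-1 tumor 2.

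The degradation genes retrieve and ubiquitinate misfolded proteins. Herpud1, a scaffold of the HRD1 ubiquitin ligase, had 2167, 2047, 2170.3, 2314 and 2579 normalized counts in PIIO-1 tumors 1 to 5, against 1879, 1767, 1952, 2220.5 and 2369 in PBS tumors 1 to 5. PBS tumors 1, 2 and 3 lay below the PIIO-1 tumors, while PBS tumors 4 and 5 lay among them. Its difference was 0.15 (SE 0.087; limma adjusted p 0.837). Syvn1 (HRD1 itself) differed by 0.066 (SE 0.046), its partner Sel1l by -0.021 (SE 0.044), the mannose-trimming lectin gene Edem1 by 0.067 (SE 0.064), and the derlin genes Derl1 and Derl2 by 0.022 (SE 0.051) and -0.047 (SE 0.041). Edem1 ranged from 0.029 (PIIO-1 tumor 5 left out) to 0.11 (PIIO-1 tumor 1 left out), and Sel1l from -0.047 (PBS tumor 1 left out) to -0.0055 (PIIO-1 tumor 3 left out). Derl3 had only 5.87 to 23.6 normalized counts in PIIO-1 tumors and 5.85 to 15.5 in PBS tumors, and its difference of 0.36 (SE 0.39) ranged from 0.18 (PBS tumor 2 left out) to 0.64 (PIIO-1 tumor 2 left out). The plasma cell genes Jchain (0 to 13.8 in PIIO-1 and 0.975 to 11.4 in PBS tumors), Tnfrsf17 (0 to 4.54 and 0 to 3.45) and Mzb1 (1.96 to 13.6 and 0 to 5.73) were below the filter. The summed plasma and B cell markers ran from 687 to 1758 in PIIO-1 tumors, highest in tumor 5, and from 752 to 958 in PBS tumors. Of the 13 markers 7 passed the filter. Of these 6 were higher on average in PIIO-1 tumors (85.7%, against 51.1% of all genes) and 1 lower, with a median difference of 0.39. At an unadjusted p under 0.05 limma gave 0 of the markers, edgeR 2 and DESeq2 3. Their part in the Derl3 values was not tested.

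The effectors of the integrated stress response had differences of both signs, 3 of 4 positive. Ppp1r15a, which encodes GADD34, the phosphatase subunit that restores translation (chromosome 7, 45522916 to 45526268, minus strand), had 5551, 6008, 7049, 8898 and 11128 normalized counts in PIIO-1 tumors 1 to 5, against 6673, 5149, 5283, 5188 and 6456 in PBS tumors 1 to 5. PIIO-1 tumors 3, 4 and 5 lay above every PBS tumor, and tumors 1 and 2 among them. The means were 7727 ± 2296 in PIIO-1 tumors and 5749.9 ± 749 in PBS tumors (SD, n = 5 each). The difference of 0.39 (SE 0.17, 95% interval 0.012 to 0.76; limma adjusted p 0.837) was 0.24 without PIIO-1 tumor 5, which also had the highest immediate early sum. Ppp1r15a is itself known as an early response gene, and the part of tissue dissociation was not tested.

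Chac1, a glutathione-degrading enzyme gene downstream of ATF4, had 836, 459, 673, 632 and 609.9 normalized counts in PIIO-1 tumors 1 to 5, against 362, 619, 438, 396 and 902 in PBS tumors 1 to 5. The highest value of the 10 was in PBS tumor 5 and the lowest in PBS tumor 1, so the PBS range enclosed every PIIO-1 tumor. Its difference was 0.30 (SE 0.24, 95% interval -0.22 to 0.82; limma adjusted p 0.865), and it was 0.18 without PBS tumor 1 and 0.50 without PBS tumor 5. Asns, which encodes asparagine synthetase, had 4378, 2973, 3928, 2929.7 and 2792 normalized counts in PIIO-1 tumors and 3683, 3851, 3226, 3037 and 3572 in PBS tumors, in the order of tumors 1 to 5. PIIO-1 tumors 1 and 3 were the highest of the 10 and PIIO-1 tumors 5, 4 and 2 the lowest, and the difference was -0.049 (SE 0.12; limma adjusted p 0.969), turning to 0.016 without PIIO-1 tumor 5. Sesn2, an ATF4-induced inhibitor of mTORC1 signalling, differed by 0.051 (SE 0.073).

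Single tumors stood out across the list. PIIO-1 tumor 5 held the highest value of the 10 tumors for 12 of the 31 genes, and PBS tumor 4, the shallowest library, held the lowest for 9. Above the gene's own mean (log2 scale) were 22 genes in PIIO-1 tumor 5 and 21 in PIIO-1 tumor 3, but 6 in PIIO-1 tumor 2, against 20 in PBS tumor 5 and 5 in PBS tumor 4. The same counts over all genes tested were not made, so these counts do not show whether the pattern is particular to this list.

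**Figure D4:**
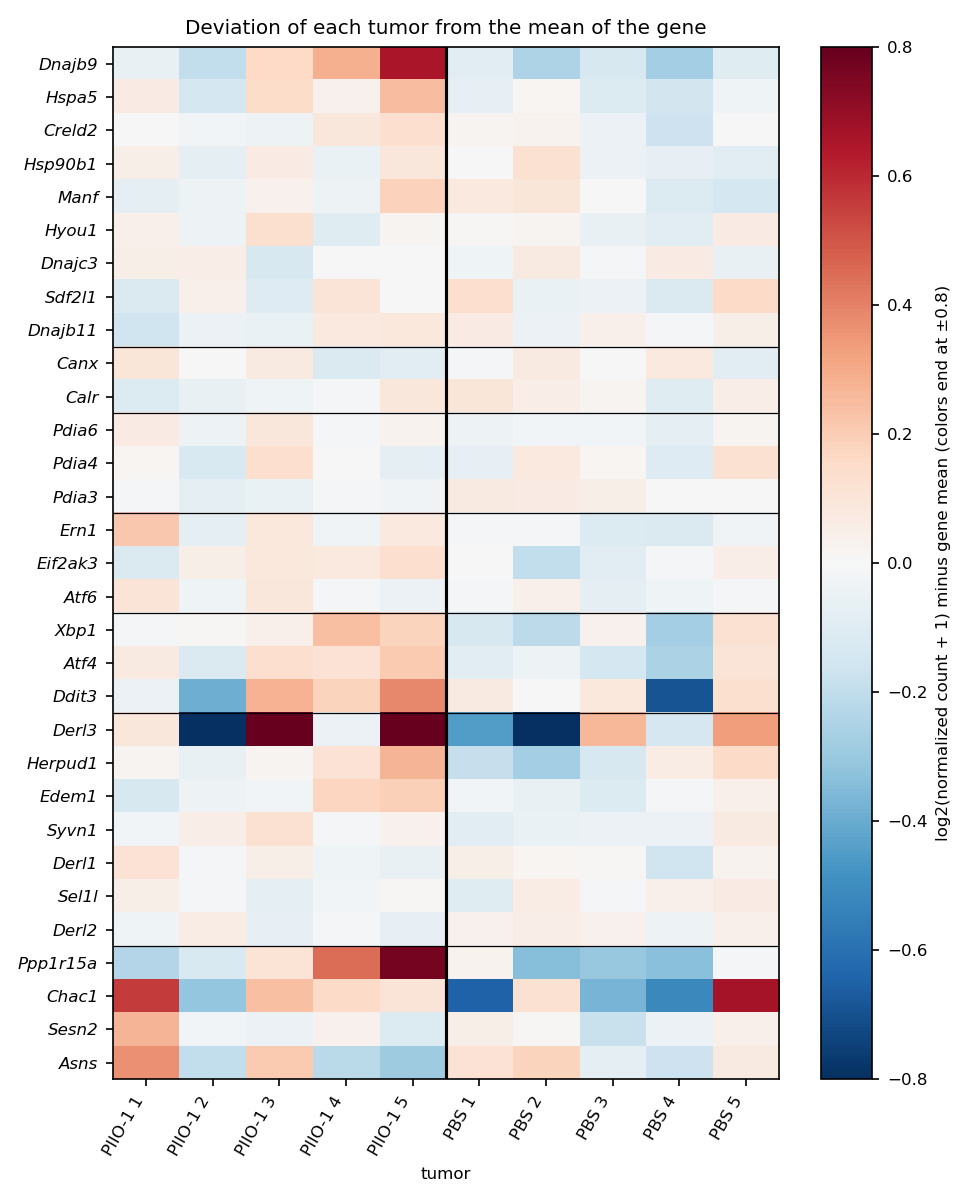
Deviation of each tumor from the mean of the gene, on the log2(normalized count + 1) scale, for the 31 genes (rows, grouped by role) in PIIO-1 tumors (left of the black line) and PBS tumors (right). Colors end at ±0.8, which Derl3 exceeds. PIIO-1 tumor 5 is high for Dnajb9, Ppp1r15a and Ddit3, and PBS tumor 4 is low for Ddit3, Chac1 and Xbp1.

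How the genes varied together was read against Hspa5, the usual readout of the ATF6 and XBP1 arms, and against Asns, a target of ATF4, in 59 pairs over the 10 tumors, with Pearson's r, Spearman's rho, two-sided permutation p-values (100000 permutations) and Benjamini-Hochberg adjustment over the 59. Values of 1 tumor share a library and its size factor, and r was not computed for genes outside the list, so counts of positive r have no background beside them. With Hspa5, 24 of 30 genes had a positive r, and Atf4 passed with r = 0.88 (adjusted permutation p 0.0369) and rho = 0.93 (adjusted permutation p 0.0150). That r was 0.83 without PIIO-1 tumors 3 and 5, the tumors farthest from the median of Hspa5, and 0.82 with each treatment group centred on its own mean. Dnajb9 (r = 0.83, rho = 0.83; adjusted permutation p 0.0563 and 0.0546) did not pass, and its r was 0.54 without these tumors. Pdia6 passed by rank alone (r = 0.78, adjusted permutation p 0.1001; rho = 0.92, adjusted permutation p 0.0150), with an r of 0.79 without these tumors. Xbp1, whose product acts on the same promoters, had r = 0.48 with Hspa5 (rho = 0.55; adjusted permutation p 0.353 and 0.324), and 0.33 without them.

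The r of Asns with Hspa5 was 0.13 (rho = 0.16; adjusted permutation p 0.851 and 0.823), but 0.63 without PIIO-1 tumors 3 and 5, so the low r rests on those tumors. With its own activator gene Atf4 it was 0.12 (rho = -0.030; adjusted permutation p 0.855 and 0.947), and 0.38 without PIIO-1 tumors 1 and 5. The pair that passed was Asns with the sensor gene Atf6, with r = 0.83 (adjusted permutation p 0.0369), 0.73 without PIIO-1 tumors 1 and 5 and 0.94 with the treatment groups centred, although its rho of 0.74 did not pass (adjusted permutation p 0.172). Derl1 passed by rank (rho = 0.87, adjusted permutation p 0.0382) and not by r (0.79, adjusted permutation p 0.0563), which was 0.67 without these tumors. The other effectors gave r of 0.64 (Sesn2; rho = 0.43), 0.41 (Chac1; rho = 0.35) and -0.47 (Ppp1r15a; rho = -0.38), with adjusted permutation p of 0.167, 0.428 and 0.366. Without PIIO-1 tumors 1 and 5 these r were 0.19, 0.33 and -0.11. In all, 2 of 59 pairs passed by r and 3 by rho.

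**Figure D5:**
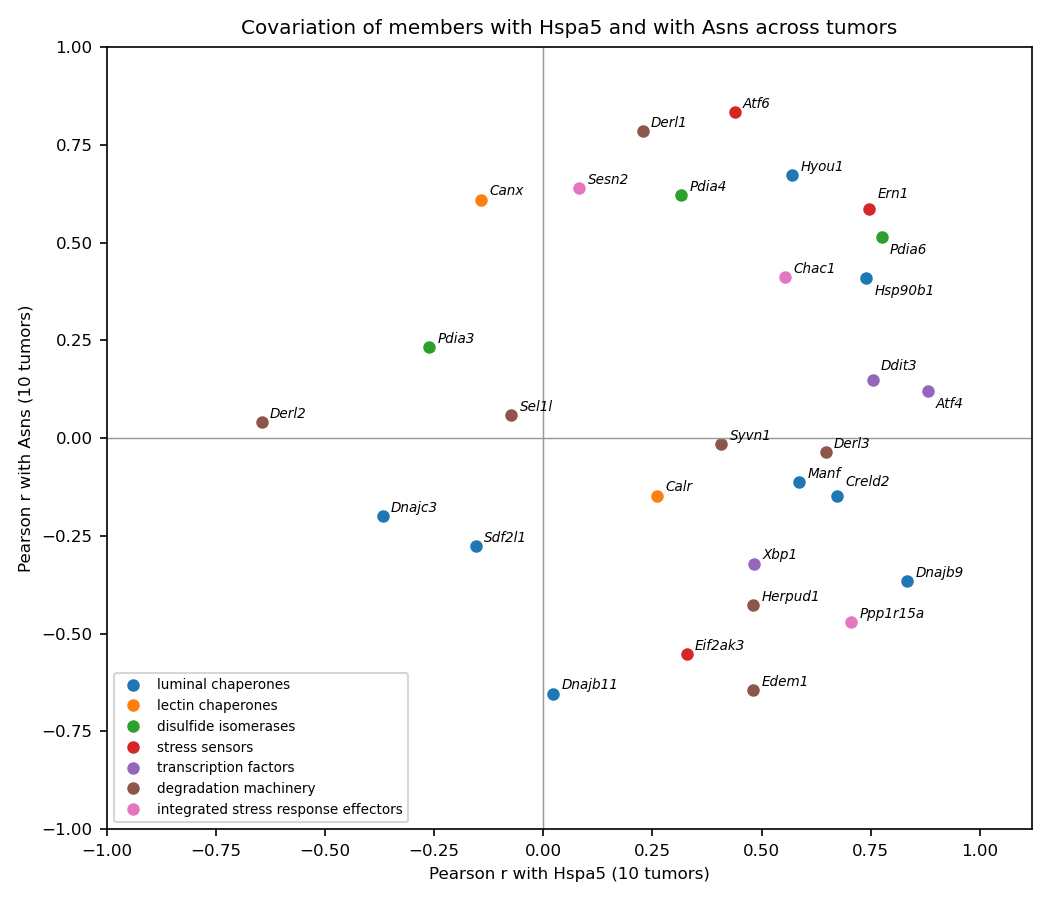
Pearson r of each gene with Hspa5 (horizontal axis) and with Asns (vertical axis) over the 10 tumors, 1 point per gene, colored by role. Atf4 lies farthest right, at an r of 0.88 with Hspa5 and 0.12 with Asns, and Atf6 highest, at 0.83 with Asns.

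Other genes of the pathway gave no call either. Of 131 further genes tested in 4 lists chosen by function, 0 passed limma, edgeR or DESeq2, and 6 had an unadjusted p under 0.05 (5 higher and 1 lower in PIIO-1 tumors), 4.58% against 5.63% of all genes. Of 37 further folding and degradation genes 15 were positive (median difference -0.022). Fkbp14, a collagen-folding isomerase gene, had 34.8 ± 11.5 normalized counts in PIIO-1 tumors and 54.0 ± 7.73 in PBS tumors (difference -0.68, SE 0.25). The glycoprotein folding sensor gene Uggt1 differed by -0.097 (SE 0.045), the thioredoxin-domain gene Txndc11 by 0.094 (SE 0.048), and the oxidase gene Ero1l, which recharges the isomerases, by 0.36 (SE 0.22). Of 27 translocon and glycosylation genes 15 were positive (median 0.018), with the channel gene Sec61b at 2312 ± 139 in PIIO-1 tumors and 2065 ± 81.4 in PBS tumors (difference 0.16, SE 0.051) and the oligosaccharyltransferase gene Dad1 at a difference of 0.13 (SE 0.053). Sec61g, of the same channel, and Ostc, of the same transferase, differed by 0.12 (SE 0.068) and 0.078 (SE 0.047). Of 24 genes of ER-to-Golgi transport and stress transduction 11 were positive, and the cargo receptor gene Mcfd2 differed by 0.10 (SE 0.041). The cargo receptor genes Surf4 and Tmed10 and the JNK kinase gene Mapk8 differed by 0.050, -0.041 and 0.057, with SEs of 0.044, 0.043 and 0.058.

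Of 43 further ATF4 and integrated stress response genes 18 were positive (median -0.027), and again 0 passed. The stress-induced gene Nupr1 had 2282, 1603, 2716, 2083 and 2431 normalized counts in PIIO-1 tumors 1 to 5, against 1242, 1682, 1552, 1322 and 1973 in PBS tumors 1 to 5. PIIO-1 tumors 1, 3, 4 and 5 lay above every PBS tumor, and tumor 2 lay among the PBS tumors. Its difference was 0.51 (SE 0.15; limma adjusted p 0.837). Ddit4, which encodes the mTORC1 inhibitor REDD1, averaged 7293 ± 1045 in PIIO-1 tumors and 5604 ± 734 in PBS tumors (SD, n = 5 each), a difference of 0.38 (SE 0.11; limma adjusted p 0.837). Ddit4 and Ero1l are also known as hypoxia-induced genes; 10 measured hypoxia genes summed to 205924, 161158, 226020.0, 170352 and 172541 in PIIO-1 tumors 1 to 5, against 141202, 187914, 176952, 135793 and 178196 in PBS tumors 1 to 5. Ldha and Pgk1 make up most of that sum; by gene, 10 of 10 were higher on average in PIIO-1 tumors (median difference 0.36), 4 at an unadjusted limma p under 0.05, and their part in the Ddit4 and Ero1l values was not tested. The amino acid transporter gene Slc38a2 and the tryptophanyl-tRNA synthetase gene Wars differed by 0.15 (SE 0.073) and -0.14 (SE 0.068).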

How the data were processed

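RNA of 10 MB-49 tumors (5 PIIO-1 and 5 PBS, grouped by the treatment label, replicate numbers from the titles) was sequenced in bulk. Per the submitters' processing notes, the tools were HISAT2, featureCounts and DESeq2 and the build GRCm38, while no version, annotation or strand setting is stated there. The deposited values are a signal that is never negative: normalized counts, 1 column per tumor, which by the name of the table were scaled by DESeq2. The titles and columns of the PIIO-1 tumors carry the name a4D3, which matched each column to its sample. Dividing each column by its smallest step gave back the reads, with 100% of values whole to within 0.001 of a read. Counts of every pair of libraries differed by more than sampling noise (chi-square per gene of at least 9.80).

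The 16767 genes whose mean reached 10 normalized counts were tested as log2(value + 1), a scale that understates the change of low genes, by limma 3.58.1 with an intensity trend in R 4.3.3, two-sided, with Benjamini-Hochberg adjustment over all genes and a threshold of 0.05. edgeR 4.0.16 and DESeq2 1.42.0 on the recovered reads were alternatives, beside other pseudocounts (0.5 and 5), filters, scalings, weights, the replicate number as a block, and tumors left out. The linear model was tested on simulated data. The genes, lists and tests were chosen with earlier results of these data known. Values in every tumor are given for 8 genes chosen for their roles (Hspa5, Hsp90b1, Dnajb9, Xbp1, Atf4, Ddit3, Chac1 and Asns), the 8 with the smallest p and any whose groups do not overlap; of each pathway list the 4 genes with the smallest p are named. Exon lengths come from the GENCODE annotation of GRCm38. Promoter sequences come from RefSeq, GRCm38.p6.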

Additional observations from a re-analysis of the deposited data

Results flagged for a closer look

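In groups of 5 tumors, a value was taken as standing apart when its gap to the nearest tumor exceeded Dixon's 95% criterion for the range of the group; 78 groups of values were checked, 62 of them of the 31 genes, and chance alone gives about 1 in 20. Among PBS tumors, tumor 4 was the lowest and stood apart for Ddit3 (696 normalized counts; nearest 1125.5), Derl1 (4077; nearest 4588) and Derl2 (1818; nearest 1912). PBS tumor 5 was the highest for Syvn1 (2117; nearest 1954). Of the summed markers, PBS tumor 2 was lowest for plasma and B cells (752; nearest 942), PBS tumor 1 highest for T cells (5822; nearest 3583), PBS tumor 5 highest for red blood cells (12848; nearest 7334) and for immediate early genes (143806; nearest 114161), and PIIO-1 tumor 1 highest for fibroblasts (11180; nearest 5401).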

How the results depend on the processing

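Under 22 alternatives 0 of the 31 genes passed after adjustment, and 20 of them kept the sign of their difference throughout. Over all genes 0 passed under the alternatives except DESeq2, which called 3. The count of the 31 genes with an unadjusted p under 0.05 was 2 with TMM scaling, array weights or edgeR, 1 without a trend, 0 in the 8 tumors left once PIIO-1 tumor 5 and PBS tumor 4 were dropped, and 0 to 6 with single tumors left out. The median difference ran from 0.030 to 0.067 with single tumors left out. PIIO-1 tumor 5 and PBS tumor 4 hold the most highest and the most lowest values of these genes, so smaller differences in those 8 tumors follow in part from that choice, and the fit is given as a description only. In it the sign turned for Hsp90b1 (-0.0036), Hyou1 (-0.0027), Manf (-0.038), Canx (0.021) and Ddit3 (-0.071). With single tumors left out, the difference ran from -0.0091 to 0.046 for Hyou1, -0.030 to 0.017 for Dnajc3, -0.062 to 0.0050 for Sdf2l1, -0.015 to 0.056 for Manf, -0.042 to 0.011 for Canx, -0.055 to 0.0079 for Pdia4, -0.015 to 0.039 for Derl1, -0.15 to 0.016 for Asns and -0.011 to 0.084 for Sesn2. Same-numbered tumors of the groups did not deviate together (correlations of deviations from -0.21 to 0.095). Only PBS tumor 3 correlated best with the tumor of its own number in the other group. These correlations showed no pairing by replicate number but cannot exclude one. With the replicate number as a block 0 genes passed and 3 of the 31 had an unadjusted limma p under 0.05. A minimum mean of 50 leaves Derl3 untested.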
